A study of Mus musculus with 8 samples.

Results

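Among mouse bone marrow (BM) neutrophils sequenced one cell at a time, a small set carried the cluster label that most resting peripheral blood (PB) neutrophils carry. These blood-like BM neutrophils were chosen by tissue and by the authors' clustering: every BM cell that the deposited annotation places in cluster 1. There were 54 such cells among 710 BM cells and 1421 cells in the whole series (7.61% of BM cells, 95% Clopper-Pearson interval 5.77 to 9.81). They were set beside the 655 BM cells of cluster 0 and the 341 cluster 1 cells of PB from PBS-injected mice. The last BM cell fell in cluster 2.

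The study compared PB and BM neutrophils of mice injected intraperitoneally with PBS or with lipopolysaccharide (LPS), a bacterial endotoxin, at 0.5 mg/kg. Single cells were taken by mouth pipette after magnetic neutrophil enrichment and sequenced by SCRB-seq, a plate method in which every well adds its own cell barcode and every transcript a unique molecular identifier (UMI). The study's reporting form gives male C57BL/6J mice, and the labels date the LPS samples at 4 h and the PBS samples at 0 h, whereas the methods describe both as taken after an injection. The groups were PB PBS, BM PBS and BM LPS, each with 2 labelled samples, and 25 of the 54 cells came from the labelled BM samples. The other 29 came from another batch (batch 6 in the deposited annotation, where the labelled samples are batch 7), whose cell names give the group and plate but no labelled sample. The labels do not say that the 2 samples of a group are separate animals, so p-values measure the spread between these samples only. Because each labelled sample is also a plate of its own, animal and plate cannot be told apart.

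Neutrophils mature in the marrow, where promyelocytes first make the proteins of primary granules, such as myeloperoxidase and elastase. Later precursors make those of secondary granules, such as lactoferrin and cathelicidin, and transcription of these genes fades before the cell enters the blood. The marrow holds neutrophils back through CXCR4, while CXCR2 and the G-CSF receptor favour their release. Circulating neutrophils carry transcripts for inflammatory mediators, pattern recognition receptors and immediate early factors. The marrow also holds neutrophils that are already mature.

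The cells were not spread evenly over the wells. On 2 BM PBS plates of batch 6, p3_1 and p3_2, which use only barcodes 49 to 96, all 15 cells at barcodes 57 to 64 were in cluster 1. Elsewhere on these plates 4 of 74 cells were (5.41%). On the other 7 BM plates, 1 of 54 cells at these barcodes was in cluster 1, against 34 of 567 cells at other barcodes. The barcodes of this run of wells are shown because they carry the pattern, with the bases written 5′ to 3′ as deposited.
barcode 57: gtcgtaga
barcode 58: gtctgtca
barcode 59: gtgttcta
barcode 60: taggatga
barcode 61: tatcagca
barcode 62: tccgtcta
barcode 63: tcttcaca
barcode 64: tgaagaga
Each differs from every other of the 96 barcodes at 4 or more of its 8 bases. The deposited files give no physical position for a barcode, and why cluster 1 fills this run was not tested. None of these 15 cells belongs to a labelled sample, so they enter only the values over all 54 cells and over batch 6.

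**Figure D1:**
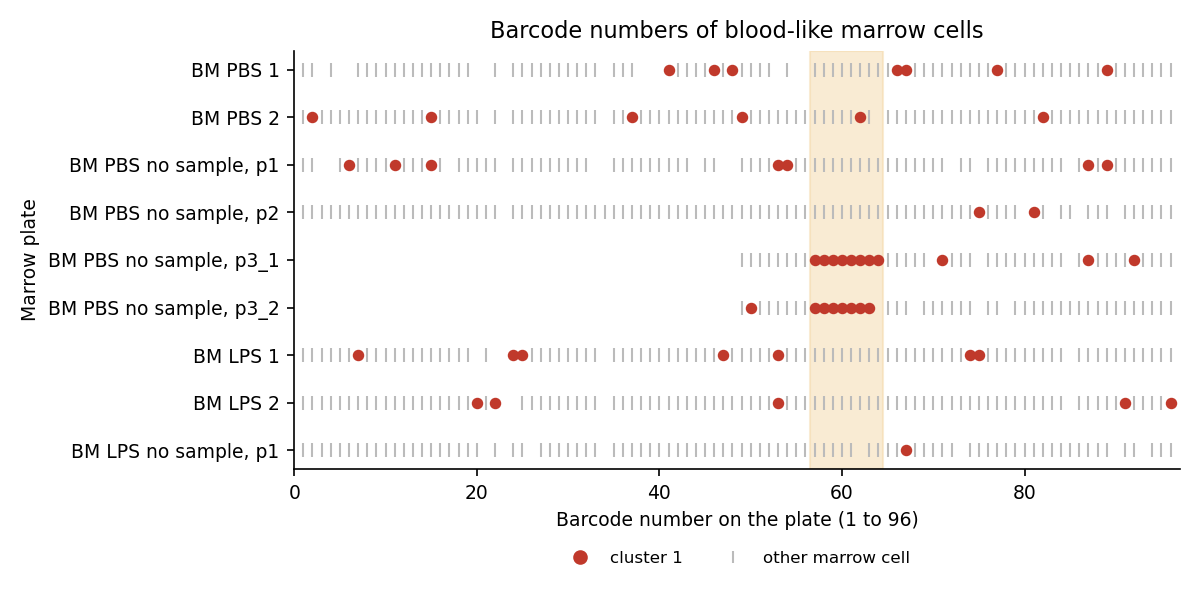
Barcode number (x axis, 1 to 96) of every BM cell on each of 9 plates (y axis), with cluster 1 cells as red dots and other BM cells as grey ticks. Barcodes 57 to 64 are shaded, and all 15 cells there on p3_1 and p3_2 are red, while other plates have 1 red dot in the shaded band.

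In the labelled samples the share of BM cells in cluster 1 was 8.43% (7 of 83 cells, exact interval 3.46 to 16.6) and 6.52% (6 of 92, 2.43 to 13.7) with PBS. It was 7.69% (7 of 91, 3.15 to 15.2) and 5.43% (5 of 92, 1.79 to 12.2) with LPS. The ranges of PBS and LPS samples overlapped. The mean was 7.48% ± 1.35 (SD, n = 2) with PBS and 6.56% ± 1.60 (SD, n = 2) with LPS, a difference of -0.914 percentage points (two-sided exact permutation test, p = 0.667, where 0.333 is the smallest p that 2 against 2 samples allow). The intervals cover counting error only.

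In batch 6 the share was 8.33% (7 of 84) and 2.20% (2 of 91) on BM PBS plates p1 and p2, 24.4% (11 of 45) and 18.2% (8 of 44) on p3_1 and p3_2, and 1.14% (1 of 88) on the BM LPS plate. Over both batches, 9.34% of BM PBS cells and 4.80% of BM LPS cells were in cluster 1, and the PBS value was 6.13% without the 15 cells at barcodes 57 to 64. Plates p3_1 and p3_2 held 19 of the 28 cells of that batch with PBS.

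**Figure D2:**
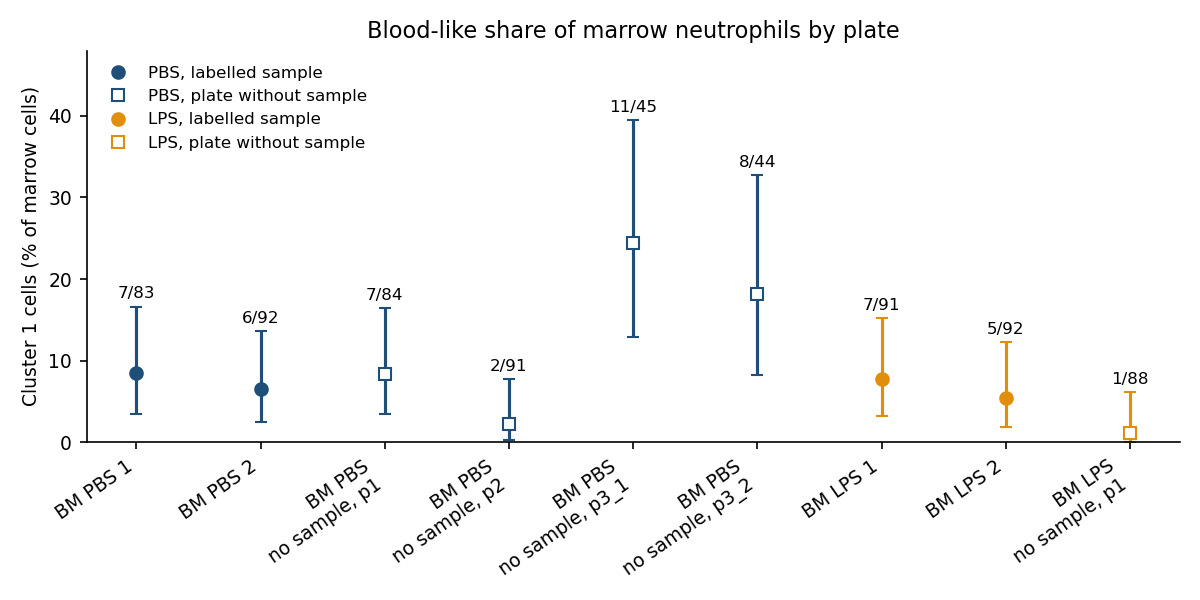
Percentage of BM cells in cluster 1 on each plate (y axis), with 95% Clopper-Pearson intervals and the counts above each bar. The 4 labelled samples lie between 5.43% and 8.43%, and plates p3_1 and p3_2 lie highest at 24.4% and 18.2%.

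The label was checked against the markers given with it. Il1b encodes the inflammatory cytokine interleukin-1β, Fos an immediate early transcription factor, Fgl2 the fibrinogen-like protein 2 and Clec7a the β-glucan receptor dectin-1. On mouse build mm9 (GENCODE vM1) they lie at chr2:129190306-129196875, chr12:86814840-86818223, chr5:20878460-20884192 and chr6:129411611-129422790. The clustering used these genes, so their levels in cluster 1 against cluster 0 are a description. Of the 54 cells, 41 (75.9%, or 26 of 39 and 66.7% without barcodes 57 to 64) had at least 3 of the 4 markers at 100 CPM or more, where CPM is a gene's UMI count after every total is brought to the same size, against 9.31% of cluster 0 BM cells and 97.4% of PB PBS cluster 1 cells. Relative to blood of the same batch, the PBS cells of batch 7 summed to 0.496 times the level of Il1b, 0.483 of Fos, 0.749 of Fgl2 and 0.963 of Clec7a.

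Summed over each sample's cells, Il1b stood at 2076 and 4987 CPM in BM PBS samples 1 and 2 and at 4301 and 2097 in BM LPS samples 1 and 2. It stood between 128 and 305 in the cluster 0 cells of the same samples, and at 5550 and 6613 in the PB PBS samples. Fgl2 stood at 1107 and 1573 with PBS and at 726 and 77.0 with LPS, against 34.7 to 113 in cluster 0. Clec7a stood at 1389 and 1930 with PBS and at 175 and 1147 with LPS, against 126 to 230 in cluster 0. For all 3 genes the blood-like cells of both PBS samples lay above cluster 0, while 1 LPS sample lay within the cluster 0 range for Fgl2 and the other within it for Clec7a. Without the cell with monocyte genes described below, Clec7a in that LPS sample was 243, above the cluster 0 range.

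Fos is a marker of the cluster, so its values by treatment are a description too. Fos stood at 1561 and 2198 CPM in the blood-like cells with PBS, at 254 and 231 with LPS, and at 3653 and 3583 in PB PBS. Among cluster 0 cells it was 655 and 162 with PBS and 131 and 136 with LPS. The PBS and LPS samples did not overlap in the blood-like cells, nor in cluster 0. How many of all genes tested did the same was not counted.

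The 15 cells at barcodes 57 to 64 lay with the blood cells more closely than the rest did. Their median Il1b was 7686 CPM (2440 to 20921), against 1851 (0 to 15750) in the 39 other blood-like cells and 6226 (51.4 to 41180) in PB PBS cluster 1. Their median Fos was 7148, against 539 in the other 39. Dusp1, which encodes a phosphatase that shuts off MAP kinases, had a median of 5400 in these 15 cells. Its median in the other 39 was 1109.

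Among BM PBS cells of batch 6 alone, the sum of Dusp1 was 6798 CPM at barcodes 57 to 64, 620 in the 13 other blood-like cells and 6124 in PB PBS cluster 1. The immediate early gene Egr1 stood at 601, 3.88 and 331, and Ptgs2, which encodes cyclooxygenase 2, at 756, 7.75 and 760. For these genes the wells 57 to 64 stood near blood and the 13 other cells did not. Other genes stood near blood in the 13 cells as well. Fgl2 was at 1959 there and 1959 in blood, Junb at 2457 and 2409, Clec7a at 1323 and 1542, and Csf3r at 7084 and 6030.

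**Figure D3:**
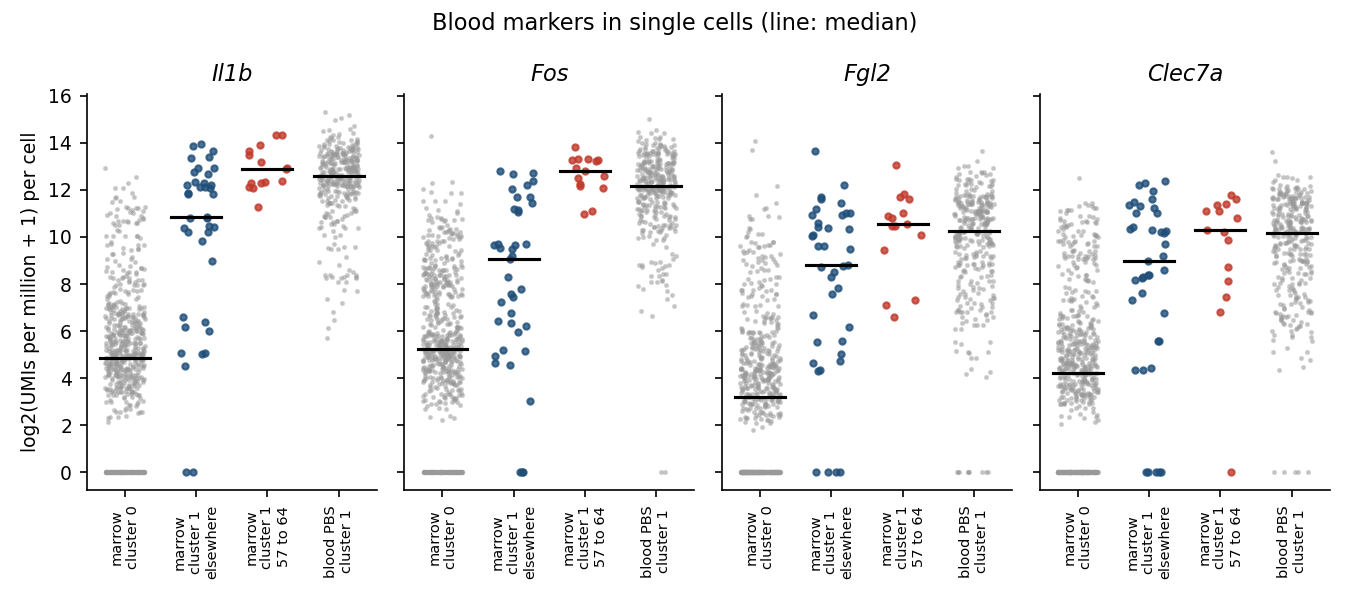
Levels of Il1b, Fos, Fgl2 and Clec7a in single cells as log2(CPM + 1) (y axis) for BM cluster 0, BM cluster 1 outside and inside barcodes 57 to 64 of the p3 plates, and PB PBS cluster 1, with medians as lines. The red cells (57 to 64) sit at the height of the blood cells, with a median Il1b of 7686 against 6226 CPM in blood, while the blue cells reach from blood levels down to 0.

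The nearest neighbours split the cells the same way. Among the 20 nearest cells in 20 principal components of 1500 variable genes, the 15 cells had a median of 13 PB PBS cells and 0 cluster 0 BM cells. The other 39 blood-like cells, LPS cells and batch 7 cells included, had a median of 2 PB PBS cells and 12 cluster 0 BM cells. A separate Leiden clustering gave 6 clusters, and the one made mostly of PB PBS cells took 25 of the 54 cells, namely all 15 at barcodes 57 to 64 and 10 of the 39 others. It took none of the 655 cluster 0 cells, and none of the 7 blood-like cells of BM PBS sample 1 or of the 7 of BM LPS sample 1. For most of the 39 cells the name blood-like thus rests on the authors' cluster label and not on these measures. Both results come from the same expression values as the authors' clustering and are descriptions.

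One of the 54 cells carried transcripts of other cell types. The cell at barcode 24 of BM LPS sample 1 held 138003 UMIs, 28.1% of all UMIs of that sample's blood-like cells. It carried transcripts of monocytes (F13a1 352 UMIs, Ms4a6c 370, Ccr2 172), of progenitors (Elane 165) and of dividing cells (Top2a 165, Mki67 138), with 15 of 20 such markers, where the next highest cell had 6 and the median cell 0. It had 3 UMIs of Il1b and none of Fgl2 or Clec7a. Its calprotectin transcript S100a8 stood at 14623 CPM, against a median of 122260 in the 38 other cells outside barcodes 57 to 64. Values without it are given below where they change a call.

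Genes of neutrophil identity were detected in every sample, not all at the cluster 0 level. Of the 10 in the list, 4 were higher than in cluster 0 over summed cells, with a median log2 difference of -0.50. Ly6g, a surface marker of neutrophils, stood at 325 and 119 CPM with PBS and at 171 and 394 with LPS, against 841 to 1112 in cluster 0. Single cells carried much of some sums, with 1 cell at 4505 in BM PBS sample 1. The median blood-like cell held 61.5 and 107 with PBS and 69.9 and 110 with LPS. The median cluster 0 cell held 94.7 and 576 with PBS and 618 and 513 with LPS. S100a8 was at 120519 and 78008 CPM in the BM PBS samples and at 110560 and 141840 in the BM LPS samples, and 51 of 54 cells lay below the cluster 0 median of their own plate. Csf3r, the G-CSF receptor, stood at 5014 and 5957 with PBS and at 2790 and 5367 with LPS, against 1075 to 1863 in cluster 0, and 53 of 54 cells lay at or above the cluster 0 median of their own plate. Markers of lymphocytes and platelets were near absent in the 54 cells. The 8 T cell markers summed to 2.03 CPM with 6 at 0, the 5 B cell markers to 0.579 with 4 at 0, the 6 NK cell markers to 2.61 with 2 at 0 and the 6 platelet markers to 1.74 with 4 at 0.

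Monocyte and eosinophil markers were not near absent. The 8 monocyte or macrophage markers summed to 1169 CPM, or 845 without the cell with monocyte genes. They summed to 964.8 in cluster 0 and to 665 to 1237 per plate in PB PBS cluster 1. Different genes made up these sums. Ly6c2 stood at 215 in the 54 cells and 901 in cluster 0, Apoe at 483 and 10.1, and Csf1r at 174 and 52.2. In BM LPS sample 1 the 8 markers summed to 2605, but to 133 without the cell with monocyte genes, with 5 of the 8 at 0. In BM PBS sample 2 they summed to 2222, of which 1516 was Apoe. The 3 eosinophil markers summed to 58.5 in the 54 cells and 152 at barcodes 57 to 64, nearly all Siglecf, and to 5.22 in cluster 0. They summed to 15.5 to 73.5 per plate in PB PBS cluster 1, mostly Ccr3 in the labelled samples and all Siglecf in batch 6. The value at barcodes 57 to 64 came from 5 of the 15 cells. The blood-like cells summed to 193 on p3_1, all Siglecf, and to 4.53 on p3_2, all Ccr3. The part of these markers in the results was not tested.

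The platelet and T cell lists were far higher in PB PBS cluster 1, where the platelet markers summed to between 317 and 2859 per plate and the T cell markers to between 74.0 and 876. Of the platelet genes, Pf4 had a UMI in 2 of 54 blood-like cells and in 21.2% to 89.7% of the PB PBS cluster 1 cells of a plate. The 15 cells at barcodes 57 to 64 also lacked them, with a platelet sum of 3.87. Dendritic cell markers, mostly Cd74 and class II genes, summed to 84.1 in those 15 cells, to 32.2 in all 54 and to 8.90 in cluster 0, against 199 to 1140 per plate in PB PBS cluster 1. The blood-like cells of p3_2 summed to 190.1 and those of p3_1 to 7.46.

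Summed levels of 3 secondary granule genes, Ltf, Camp and Ngp, lay apart from blood in the blood-like BM cells. Ltf encodes lactoferrin, Camp the cathelicidin precursor and Ngp a neutrophilic granule protein. They lie within one stretch of chromosome 9 (mm9, GENCODE vM1) at chr9:110921796-110945270, chr9:109749889-109751970 and chr9:110322254-110325514. Each of the 54 cells had UMIs of all 3, and each lay below the median of cluster 0 cells on its own plate and above the median of PB PBS cluster 1 cells.

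Summed per sample, Camp stood at 878 and 2660 CPM in blood-like cells with PBS and at 2255 and 2456 with LPS. PB PBS cluster 1 had 34.4 and 17.7, and cluster 0 of the same BM samples had 13400 to 23310. Ltf stood at 514 and 1276 with PBS and at 628 and 1078 with LPS, against 5.0 and 6.3 in blood and 8446 to 11020 in cluster 0. Ngp stood at 669 and 3425 with PBS and at 3827 and 1900 with LPS, against 61.4 and 29.0 in blood. For all 3 genes the summed levels of the blood-like BM cells lay apart from both other classes in every labelled sample. Single cells overlapped with both. Of the 54 cells, 1 held less Camp than the lowest cluster 0 cell and none less Ltf or Ngp, while 19, 46 and 2 held more Camp, Ltf and Ngp than the highest PB PBS cluster 1 cell.

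The tissues were compared within cluster 1, where both carry the same label. That label came from the same expression values, so it bears on these differences too. With PBS alone, edgeR's quasi-likelihood test on UMIs summed per sample called 3 of 4822 genes higher in the blood-like BM cells than in PB (0.0622% of genes tested). These were Ltf (log2 fold change 7.66, SE 1.04, adjusted p = 0.0106), Camp (6.44, SE 0.77, adjusted p = 0.00528) and Ngp (5.84, SE 0.84, adjusted p = 0.0129). They are 3 of the 13 secondary granule genes, whose median log2 fold change was 0.90 against -0.60 over all genes tested. Camp and Ngp passed under all 18 alternatives run. Ltf lost its call without PB PBS sample 1 and without PB PBS sample 2.

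No gene was called lower by edgeR (0% of genes tested), while 688 had an unadjusted p under 0.05 (14.3%), DESeq2 called 14 lower and limma-voom 332. On simulated counts for this comparison edgeR recovered 33.9% of 64-fold changes and 1.72% of 16-fold changes.

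The ratios were smaller in batch 6. There, without the cells at barcodes 57 to 64, blood-like BM PBS cells had 11.7 times the Camp level of PB PBS cluster 1 (2323 against 198 CPM), 15.8 times the Ltf level and 6.39 times the Ngp level. In batch 7 the ratios of summed UMIs were 50.7, 136 and 30.7. The blood cells differed more between batches than the marrow cells did, with 98.9 CPM of Ltf in batch 6 and 5.49 in batch 7. At barcodes 57 to 64 the sum of Camp was 1855, that of Ltf 1415 and that of Ngp 2050, so these wells, near blood in Fos and Dusp1, were above blood in the granule genes.

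Levels of Camp, Ltf and Ngp differed between BM PBS samples 1 and 2, but not in the blood-like cells alone. Cluster 0 medians of these samples had the same order, at 2303 and 6877 CPM for Camp. They were 1033 and 1798 for Ltf, and 2509 and 8748 for Ngp. Among the blood-like cells, Lcn2 and Mmp8, also secondary granule genes, overlapped, with 667 to 6549 and 1556 to 2294 CPM of Lcn2 in single cells. In BM PBS sample 1 the 7 cells held 555 to 1352 CPM of Camp, with a median of 871, and in BM PBS sample 2 the 6 cells held 2061 to 3398, with a median of 2944. The ranges of these samples did not overlap, whereas most other plates overlapped, with 348 to 5126 in BM LPS sample 1, 1350 to 3952 in BM LPS sample 2 and 967 to 3428 on plate p3_1. The spread within plates was 0.52 (SD of log2 values, 50 cells of 7 plates) for Camp, 0.45 for Ltf and 0.59 for Ngp. It was 3.25 for Il1b, 3.67 for Clec7a and 2.05 for the neutrophil collagenase gene Mmp8.

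The blood-like cells' median Camp was 11.5% to 47.7% of the median cluster 0 cell of the same plate, that of Ltf 13.2% to 74.9% and that of Ngp 8.50% to 32.1%. Plate p3_1 was lowest for all 3 genes. No BM cell of cluster 0 was without Camp either, and the lowest held 435 to 1558 CPM depending on the plate. The ratio of Ltf to Camp in the blood-like cells was 0.586 and 0.480 in the BM PBS samples, beside 0.581 and 0.473 in cluster 0. With LPS it was 0.279 and 0.439 beside 0.630 and 0.601. The ratio of Ngp to Camp was 0.762 and 1.29 with PBS, beside 1.33 and 1.54 in cluster 0, and 1.70 and 0.774 with LPS, beside 1.546 and 1.502. How much of these counts came from the cell and how much from RNA of other wells of the plate was not tested.

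**Figure D4:**
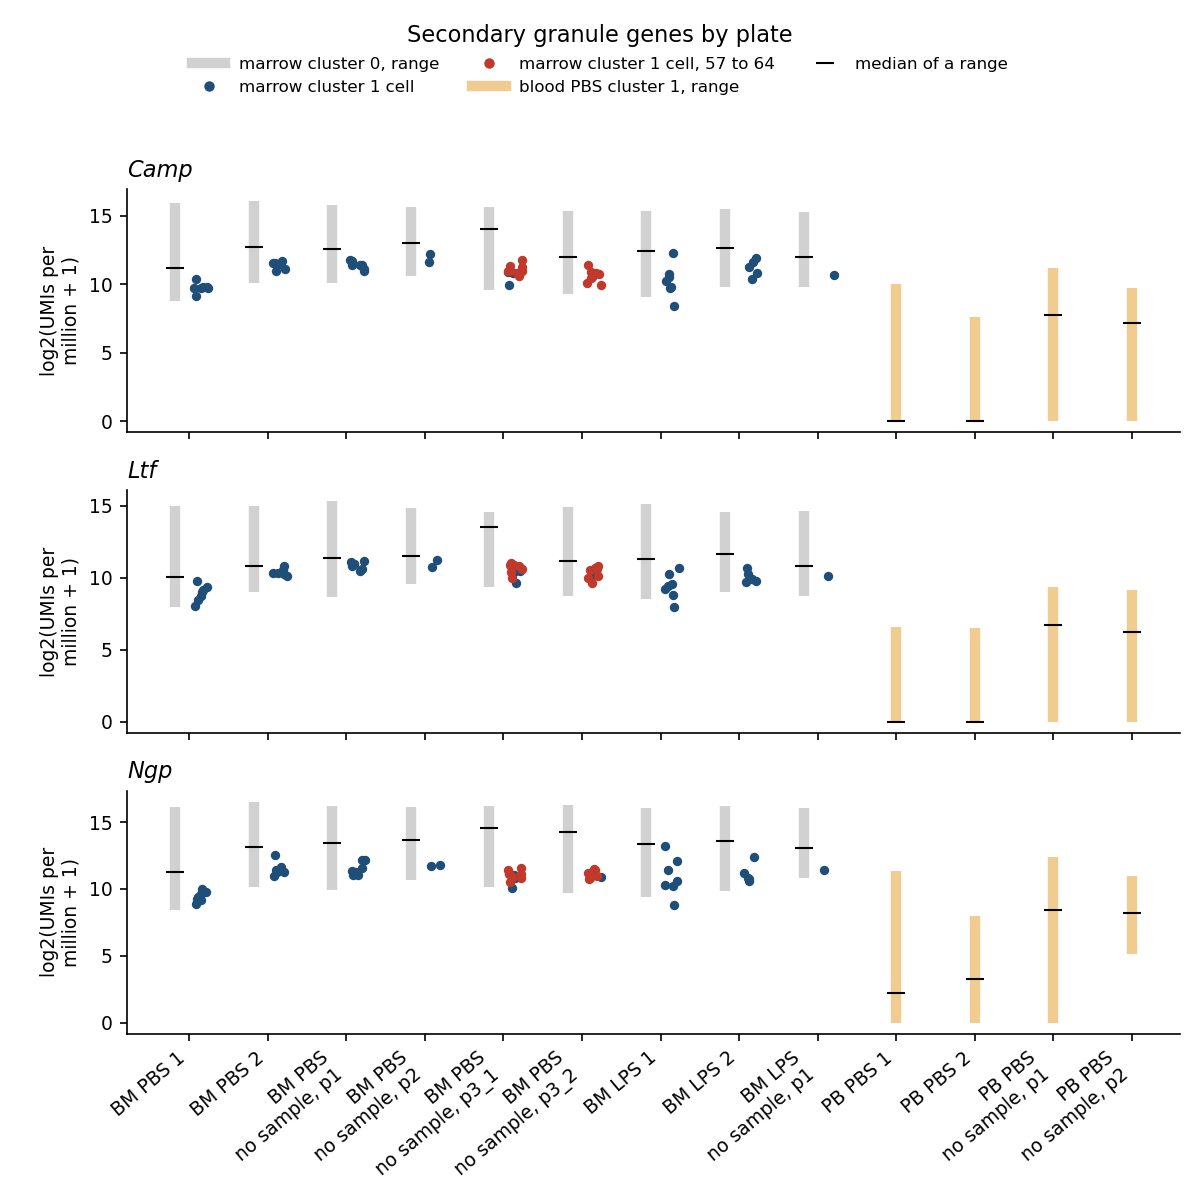
Levels of Camp, Ltf and Ngp as log2(CPM + 1) (y axis) by plate, with the range of BM cluster 0 cells (grey) and PB PBS cluster 1 cells (orange), black dashes at their medians and single blood-like BM cells as dots. Every dot lies below the grey median of its plate and above the median of blood, with Camp between 348 and 5126 CPM.

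Taking both treatments of marrow together widened the granule pattern. In the mean of BM PBS and BM LPS blood-like cells against PB PBS, 11 genes were called higher (0.228% of genes tested) and 179 lower (3.71%) by edgeR, while 38 higher (0.788%) and 726 lower (15.1%) had an unadjusted p under 0.05. Of the 13 secondary granule genes, 6 rose and none fell, with a median log2 fold change of 1.89 against -1.04 over all genes tested. Besides Camp, Ltf and Ngp these were Chil3, Lcn2 and Mmp8. Treatment differs in part of this comparison, since blood is represented by PBS only.

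Lcn2, which encodes the iron-sequestering lipocalin 2, stood at 2532 and 1941 CPM with PBS, 4988 and 6325 with LPS and 1210 and 1122 in blood (log2 fold change 1.89, SE 0.38, adjusted p = 0.0267, edgeR). Mmp8 stood at 1420 and 1600, 4602 and 5538, and 1008 and 1118 in the same order (1.65, SE 0.39, adjusted p = 0.0321). All marrow samples lay above both blood samples for these genes. Chil3, a chitinase-like protein gene with near-identical copies that unique mapping can split, stood at 123 and 722, 2033 and 351, and 3.6 and 3.5 (7.83, SE 1.30, adjusted p = 0.0267). Without the cell with monocyte genes, Chil3 in BM LPS sample 1 was 167 and the call held (6.85, adjusted p = 0.0219). In batch 6, again without barcodes 57 to 64, Chil3 in BM PBS was 2.58 times the blood level, against 85.9 times in batch 7. Of these calls Lcn2 was lost in 5 alternatives, Mmp8 in 9 and Chil3 in 3.

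The calprotectin genes S100a8 and S100a9 were called higher too. S100a9 stood at 85010 and 51119 CPM with PBS, 67122 and 80215 with LPS and 40748 and 41938 in blood (log2 fold change 1.06, SE 0.20, adjusted p = 0.0267). S100a8, with its marrow levels given above, stood at 80256 and 82292 in blood and rose by 0.74 (SE 0.19, adjusted p = 0.0409). Retnlg, a resistin-like protein gene, stood at 32607 and 10012 with PBS, 27052 and 29392 with LPS and 10863 and 11629 in blood (1.41, SE 0.37, adjusted p = 0.0485). For S100a8 and Retnlg, BM PBS sample 2 lay below both blood samples. The calls of S100a8 and Retnlg were each lost in 5 alternatives (library size alone, DESeq2, thinning and without either BM LPS sample) and that of S100a9 in 3 (DESeq2, thinning and without BM LPS sample 2). Adpgk, which encodes an ADP-dependent glucokinase, stood at 165 to 342 in the marrow samples and at 1.0 and 2.2 in blood (7.38, SE 1.84, adjusted p = 0.0409), but its call was lost in 12 of 18 alternatives.

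The 179 genes called lower include the marker Fos. Because the clustering used Fos, its values above are a description and no result is drawn from its call. Malat1, a nuclear noncoding RNA, stood at 22780 and 25927 CPM with PBS, 17694 and 20935 with LPS and 49228 and 45658 in blood (-0.86, SE 0.15, adjusted p = 0.0267). In batch 6 this order did not hold, with 26006 in blood-like BM PBS cells (17314 without barcodes 57 to 64) and 16524 in blood. The call of Malat1 was lost in 5 alternatives. The count of genes called lower rested on few cells. Of the 179, 155 had no UMI in any of the 25 blood-like cells of the labelled samples (1833964 UMIs in all), against 174 blood cells, and 158 had over 50% of a blood sample's UMIs in 2 cells.

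Of the 6 hepatocyte genes tested, 3 were called lower, against 3.71% of all genes tested. Thinning to 5000 UMIs left 1 of 759 tested genes called lower. The 3 hepatocyte genes had 0 UMIs in the blood-like cells of the labelled BM samples. Alb was at 456 and 926 CPM in the PB PBS samples, Apoa2 at 376 and 451, and Mup3, which has near-identical copies, at 286 and 453. Against the limit of 3 UMIs over the marrow cells they were at least 390-fold, 248-fold and 214-fold lower. Alb had a UMI in 98.9% and 100% of the cells of the labelled PB PBS samples, but in 3.45% and 0% on the PB PBS plates of batch 6. Ctla2a, which encodes a cysteine protease inhibitor and has a near-identical copy, was also at 0 UMIs in the blood-like cells of the labelled BM samples, against 369 and 428 CPM in PB PBS (adjusted p = 0.0267), and was at least 239-fold lower. It was low in batch 6 as well, with 3.2 in blood-like BM PBS cells (3.9 without barcodes 57 to 64) and 1251 in blood. Its call was lost in 5 alternatives, namely with thinning and without either PB PBS or either BM LPS sample. The total of 190 calls fell to between 6 and 22 when any one sample was left out, and rose to 394 without the cell with monocyte genes, of which 157 were among the 190.

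The 4 markers helped to define cluster 1 in both tissues, so their differences between PBS marrow and blood are a description. The fitted log2 fold change was -0.42 (SE 0.43) for Il1b, -0.56 (SE 0.46) for Fos, 0.11 (SE 0.78) for Fgl2 and 0.48 (SE 0.75) for Clec7a.

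LPS against PBS within the blood-like BM cells gave 1 call by edgeR, lower with LPS (0.0207% of genes tested), while 347 were lower at an unadjusted p under 0.05 (7.20%). Apoe, which encodes apolipoprotein E and is made by macrophages, stood at 458 and 1516 CPM with PBS, and had 0 UMIs in all 12 LPS cells (adjusted p = 0.0298). Against the limit of 3 UMIs over those cells it was at least 158-fold lower with LPS. The PBS level came from few cells, since 4 of the 13 cells had 10 or more UMIs. The call was lost with library size alone and with cells thinned to 5000 UMIs. Apoe in PB PBS stood at 720 and 494. In cluster 0 of the BM samples, 12 of 76 and 45 of 86 cells had an Apoe UMI with PBS. With LPS it was 5 of 84 and 1 of 86, the same order as in the blood-like cells. No gene was called higher (0%), while 418 had an unadjusted p under 0.05 (8.67%), DESeq2 called 245 higher and limma-voom 5. Without the cell with monocyte genes edgeR called 1 gene higher, Lrg1, which encodes a secreted leucine-rich glycoprotein and is named here after its values were seen. It then stood at 270 and 195 CPM with PBS and at 1823 and 4913 with LPS (3.79, SE 0.56, adjusted p = 0.0349). With that cell, BM LPS sample 1 was at 1328 and the adjusted p was 0.257. In PB PBS, Lrg1 stood at 1974 and 2455.

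Other named genes had values that did not overlap between the treatments without passing the test, among them Lcn2 and Mmp8 with the levels given above. How many of all 4822 genes tested did not overlap was not counted, so no response to LPS is read from this. Wfdc17, a whey acidic protein family gene, stood at 217 and 13.5 CPM with PBS and at 3101 and 779 with LPS (3.69, SE 1.02, adjusted p = 0.311), and Lilr4b, an inhibitory leukocyte receptor gene, at 679 and 646 and at 2965 and 1772 (1.56, SE 0.52, adjusted p = 0.311). Both belong to a list of 6 marrow LPS genes that was chosen with earlier results of these data known, so it is not independent evidence. Cluster 0 cells showed the same order for Wfdc17, with 28.9 and 23.3 with PBS and 559 and 661 with LPS. In batch 6, however, Wfdc17 in blood-like BM PBS cells was at 2670 (3509 without barcodes 57 to 64), beside 3925 in the 1 BM LPS cell there. None of the 13 secondary granule genes was called, with a median log2 fold change of 0.94 against 0 over all genes tested.

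Against cluster 0 the blood-like cells differed in genes of all kinds, as the clustering implies, and no test was made. Of 2916 genes with at least 50 CPM in either class, 67 were higher and 237 lower in all 4 samples and both pools, of which the LPS pool is 1 cell. Over summed cells 2205 of 3372 genes were higher, with a median log2 difference of 0.51. These 3372 had at least 50 CPM in either class or in PB PBS cluster 1, so genes high in blood alone were counted. Led by Il1b, the 10 largest differences upward included the lysosomal activator Gm2a (545 against 46.3 CPM over all cells), Marcks, which encodes an actin-binding kinase substrate (1064 against 152), the AP-1 genes Junb (2058 against 214) and Jund (422 against 67.0), and Pla2g7, which encodes the platelet-activating factor hydrolase (1052 against 144). LOC100038947, Gm5150 and Sirpb1b, members of the signal-regulatory protein family, were also among them, and their reads may be split between near-identical copies.

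The largest differences downward included Mgst2, which encodes a microsomal glutathione transferase (9.6 against 202), Inhba, an activin subunit gene (9.3 against 165), Golim4 (15.1 against 196), the transcription factor gene Klf5 (2.3 against 93.2), the proton channel gene Hvcn1 (4.6 against 95.9) and the complement regulator Cd55 (3.8 against 78.0). For Mgst2, Inhba and Golim4 the level in PB PBS cluster 1 was also low, at 8.8, 1.0 and 6.8. Trappc4 and Fam214b differed from these. Trappc4 stood at 3.8 in blood-like cells, 102 in cluster 0 and 84.8 in blood, and Fam214b at 1.7, 62.8 and 57.1.

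The levels were also placed on the log2 distance from cluster 0 to PB PBS cluster 1, a position that the cluster label partly sets. Over all 54 cells, the median of the 16 immediate early genes that differ at least 2-fold between those classes stood 88.5% of the way to blood, but 59.5% without the cells at barcodes 57 to 64. For 8 release and homing genes it was 88.1% and, without those cells, 69.6%. For 12 secondary granule genes it was 58.2% and 51.4%, and for all 1386 such genes 75.4% and 64.98%. Without those cells the immediate early genes thus stood below all such genes. The 1115 genes that were higher in blood stood at 78.4% and 66.9%, and the 271 higher in cluster 0 at 67.3% and 57.1%. The cells left out were all PBS, so LPS cells weigh more in each second value, while blood was PBS only. For LPS against PBS the immediate early genes had a median log2 fold change of -1.14. No position was computed for PBS cells alone, so treatment and barcode cannot be told apart in these values. Cxcr2, the release receptor, stood at 2943 and 2617 CPM with PBS and at 3550 and 2936 with LPS, against 876 to 2266 in cluster 0 and 2883 and 2605 in blood. Cxcr4, the retention receptor, stood at 26.9 and 170 with PBS and at 0 and 42.8 with LPS, against 20.5 to 64.9 in cluster 0 and 152 in each blood sample. Primary granule genes were near absent. The 4 in the table summed to 62.0 CPM over all 54 cells, and Elane had 165 UMIs in the cell with monocyte genes and a UMI in 2 others.

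The median blood-like cell had 59404 UMIs (5750 to 174964), the median cluster 0 cell 71312 and the median PB PBS cluster 1 cell 46321. In BM PBS sample 1 the blood-like cells were deeper than cluster 0 (151283 against 44145 UMIs), and in BM LPS sample 2 they were shallower (28002 against 76864). The mean log2 difference was -0.02 ± 1.36 (SD, 4 samples, two-sided exact sign-flip permutation test, p = 1). Thinned to 5000 UMIs, the blood-like cells had a median of 734 genes and cluster 0 cells 740.

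The authors' ratio of ERCC spike-ins, control RNAs added to each well, was higher in the blood-like cells. Its medians were 0.588 and 0.677 in the BM PBS samples and 0.574 and 0.618 in the BM LPS samples, against 0.420, 0.464, 0.427 and 0.397 in cluster 0 of the same samples. The difference was 0.188 ± 0.035 (SD) and higher in 4 of 4 samples (two-sided exact sign-flip permutation test, p = 0.125, the smallest that 4 samples allow, 0.375 adjusted over 3 measures by Benjamini-Hochberg). Of all 54 cells, 52 lay above the cluster 0 median of their own plate. PB PBS cluster 1 had a median of 0.623, beside 0.629 in the 54 cells. Across these 54 cells the ratio and the Camp level had a Spearman's rho of 0.44, over cells that share plates.

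**Figure D5:**
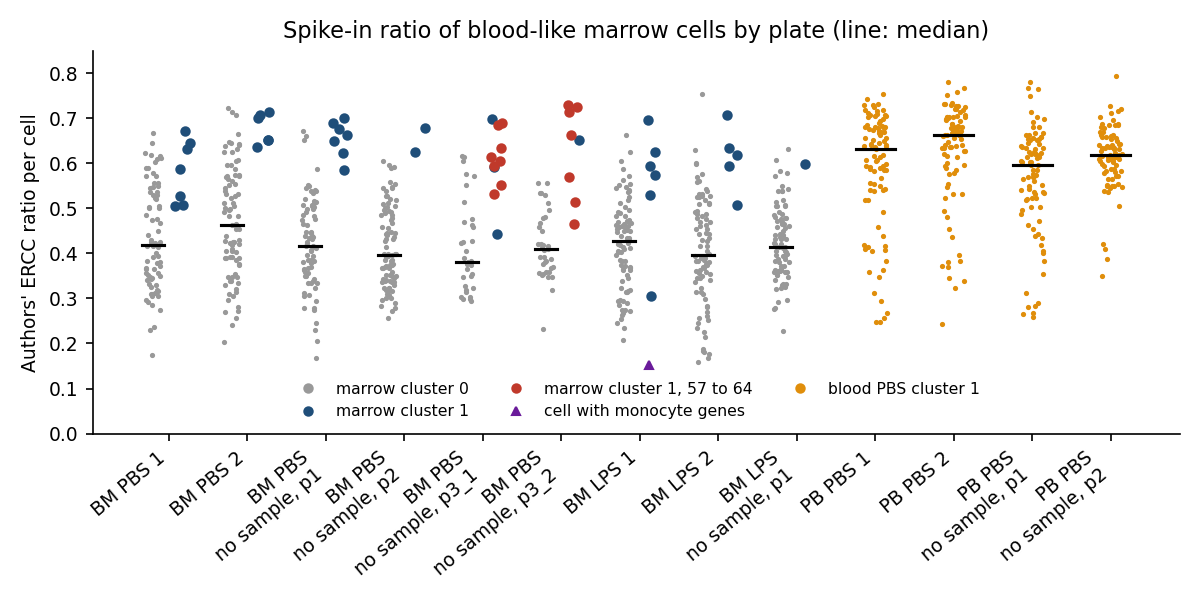
The authors' ERCC ratio of each cell (y axis) by plate for BM cluster 0 (grey), blood-like BM cells (blue, red at barcodes 57 to 64, and a triangle for the cell with monocyte genes) and PB PBS cluster 1 (orange), with medians as lines. Blood-like cells sit above the grey median of their plate in 52 of 54 cases, and the triangle is the lowest of them at 0.153.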

How the data were processed

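UMI counts of 10970 genes in 1421 cells were deposited, without normalization, with an annotation giving each cell's batch, plate, cluster and ERCC ratio, a fraction the authors calculated with a denominator not stated in the sources used here. Per the labels, the authors trimmed reads with Cutadapt 1.15, aligned them to mm9 with STAR 2.6.0a and counted uniquely mapped UMIs with HTSeq 0.11.2. Their methods kept cells with over 500 and under 4000 genes, over 5000 UMIs, a log10 ratio of genes to UMIs above a set limit and an ERCC ratio near the median, which bounds the ERCC ratios compared here. The gene annotation and any doublet removal are not given in the sources used here, and no doublet caller was run. Labelled samples held 3240559 to 8361677 UMIs and the cluster 1 cells summed per BM sample 116836 to 855371.

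Counts were summed per sample over cluster 1 cells of BM PBS, BM LPS and PB PBS, and 1 model with 3 groups was fitted with edgeR 4.0.16 (filterByExpr, TMM, glmQLFit, glmQLFTest, Benjamini-Hochberg 0.05, two-sided, R 4.3.3). Levels are CPM, counts scaled to a common total of summed UMIs. Shares, depth and ERCC ratio were compared by exact permutation over samples in Python 3.11.15 with scipy 1.17.1. The edgeR step was tested on simulated data. DESeq2 1.42.0, limma 3.58.1, other scalings and filters, thinning and leaving out each sample were alternatives. Cells of batch 6, which match no labelled sample, entered only pooled values and alternatives. The cells and gene lists were chosen with earlier results of these data known. Named genes were the 4 markers, the genes of the fixed lists, and for each comparison the 10 largest changes each way past the threshold (or, against cluster 0, without a test) that reached 50 CPM in the higher group and had 1 direction in every pair of samples. S100a8, Retnlg and the Alb cell shares were added as list members.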

Additional observations from a re-analysis of the deposited data

Results flagged for a closer look

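On the BM PBS plates p3_1 and p3_2 of batch 6, which match no labelled sample, 15 of 15 cells at barcodes 57 to 64 were blood-like, against 4 of 74 elsewhere on the same plates. The signal lies in cells outside the compared samples and stands above the other BM plates, where 1 of 54 cells at these barcodes and 34 of 567 at other barcodes were blood-like. These 15 cells had a median ERCC ratio of 0.615, against 0.393 in the cluster 0 cells of the same plates and 0.613 in PB PBS cluster 1 of that batch. Their platelet markers summed to 3.87 CPM, against 1248 and 2859 on the PB PBS plates of that batch, and their Camp to 1855 against 198. Where these cells came from was not tested.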

How the results depend on the processing

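Alternatives were run for the gene counts, the share and the depth measures. The main counts of genes called were 3 for BM PBS against PB PBS, 1 for LPS against PBS and 190 for both treatments against PB PBS. For the first, size factors of DESeq2 in edgeR gave 5, the DESeq2 Wald test 32, limma-voom 364 and no filter 12, and leaving out a sample gave 6 to 28. For the second, library size alone gave 0, DESeq2 467, limma-voom 31, no filter 26 and genes in at least 10 cells 2, and leaving out a sample gave 7 to 68. The Apoe call was lost with library size alone and with thinning to 5000 UMIs. For the third, DESeq2 gave 33, limma-voom 396, no filter 15 and thinning to 5000 UMIs 5, and leaving out a sample gave 6 to 22. Where a group kept 1 sample, it was assumed to vary like the others. On simulated counts for the first comparison 51% of DESeq2's 96 calls were wrong, and none of edgeR's 22.

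The replicate block gave 10, 7 and 16 calls. Deviations of samples with the same number correlated at -0.03, -0.01 and -0.02. The BM sums hold few cells, and log2 CPM of samples 1 and 2 correlated at only 0.48 with PBS and 0.43 with LPS. The check therefore cannot decide whether the numbers pair the samples. Adding the cells without a sample with batch as a term gave 7, 14 and 92, and, chosen after seeing the data, the same without barcodes 57 to 64 gave 7, 23 and 102. Leaving out the cell with monocyte genes, also chosen after seeing the data, gave 3, 2 (1 higher and 1 lower) and 394. No sample had under 5 blood-like cells.

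The share difference of -0.914 points ranged from -2.04 to 0.215 on leaving out a sample. The log2 UMI difference of -0.02 ranged from -0.62 to 0.46, and the gene number difference of 9.75 from -47.7 to 53.2, and was -4.39 with the plates of batch 6 added without barcodes 57 to 64. The ERCC difference ranged from 0.177 to 0.201. Under the separate clustering the share difference was -1.09, and the depth measures could not be compared because 2 samples had no such cell.

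Of the single genes, uncalled values changed sign for Il1b in the first comparison without BM PBS sample 1 (0.0048, range on leaving out a sample -1.10 to 0.0048), for Fgl2 with library size alone (-0.29), limma-voom (-0.042), thinning (-1.002) or a sample left out (-0.21 to 0.24), and for Clec7a with thinning (-0.092). In the second Il1b turned with limma-voom (0.19), thinning (0.59), without BM PBS sample 2 (0.13, range -1.14 to 0.13) and without the cell with monocyte genes (0.32). In the third Clec7a turned with DESeq2's size factors (0.10) and Wald test (0.11). The other 472 single-gene values kept direction and side of the threshold, 107 lost and 20 gained a call. The cause was not tested. The median log2 fold change over all genes was -0.60 for the first comparison (-1.03 with library size alone, -0.31 with DESeq2's size factors) and -1.04 for the third (-1.30 and -0.69). With 5 to 7 cells in a sample, genes with few UMIs per cell could not be compared.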
